A study of Mus musculus with 8 samples.

Results

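The genes described here were taken by symbol as the constitutive subunit genes of the mouse proteasome. They were the rows of the count table whose symbol was Psma, Psmb, Psmc or Psmd followed by a number, with the inducible catalytic subunits Psmb8, Psmb9 and Psmb10 left out. The rule found 36 genes among 55335 rows, of which 52110 carried a gene symbol. By symbol, 16 of the 36 genes are called core here (Psma and Psmb) and 20 regulatory (Psmc and Psmd). The 16 include the tissue-restricted Psma8 and Psmb11. The 20 include the base assembly chaperones Psmd5, Psmd9 and Psmd10, which leave before the proteasome is complete. All 36 are called subunit genes below. Genes with other symbols, such as Adrm1 and Sem1, fall outside the rule.

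The proteasome is a barrel-shaped protease that degrades proteins tagged with ubiquitin. Stacked rings of alpha and beta subunits form its core, and some beta subunits cut peptide bonds inside the chamber. The regulatory particle caps the core: its base holds a ring of ATPases that unfold the substrate, and its lid holds the enzyme that removes the ubiquitin chain. When proteasome capacity is short, mammalian cells can raise transcription of subunit genes through the factor Nfe2l1, and inflammatory signals can replace the catalytic subunits with inducible ones.

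RNA sequencing libraries had been made from wild-type (WT) primary lung fibroblasts of mice, grown in DMEM with fetal bovine serum. The cells were exposed for 48 hours to recombinant TWEAK at 10, 30 or 100 ng/ml, or were left untreated. TWEAK is a cytokine of the tumour necrosis factor family that signals through the receptor Fn14, largely to NF-kappa B. The 8 libraries fell into 4 groups of 2. Nothing in the labels tells whether libraries of the same group were grown as separate cultures, so the p-values reflect a spread that could be purely technical. The labels name no line, clone or sex of the donor animals.

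Total counts ranged from 37345575 to 50896445 per library. On the first principal component, which held 49.7% of the variance, untreated libraries scored -67.6 and -66.5. Scores were 61.4 and 62.6 for 10 ng/ml, 48.7 and 35.3 for 30 ng/ml, but -36.2 and -37.7 for 100 ng/ml. The libraries labelled 100 ng/ml thus lay nearer to the untreated libraries than those of either lower dose, against the order of the doses. Whether these labels match the dose was not tested, so each value at 100 ng/ml is that of the libraries so labelled. The summed level of 10 fibroblast markers was 33900 to 35100 CPM (normalized counts per 1000000 counts) in untreated libraries, 18700 to 19400 at 10 ng/ml, 19900 to 22900 at 30 ng/ml and 32000 to 32500 at 100 ng/ml. At 10 ng/ml 7 of these markers fell, among them Col1a1 and Col3a1, and 3 rose, Pdgfra, Dcn and Vim. The 7 macrophage and myeloid markers summed to 11.6 to 15.3 CPM in untreated libraries, 23.5 to 27.2 at 10 ng/ml, 21.7 to 26.7 at 30 ng/ml and 24.4 to 27.3 at 100 ng/ml, with C1qa at 0 throughout. Of these 7, only Cd68 passed the test against untreated, and it rose at 10, 30 and 100 ng/ml. The 8 epithelial markers summed to at most 2.93 CPM in any library, with Epcam at 0, and Krt18 rose at 30 ng/ml. The 6 lymphocyte markers summed to at most 0.573 CPM, with Cd3e, Cd8a and Nkg7 at 0. The 6 endothelial markers summed to at most 7.69 CPM, and Cdh5 rose and Tek fell at both lower doses. Cdh5 had 4.27 and 3.81 CPM at 10 ng/ml, against 0.18 and 0.12 CPM untreated. The 4 mesothelial markers summed to 12.6 to 13.1 CPM untreated, 4.42 to 6.06 at 10 ng/ml, 4.30 to 5.31 at 30 ng/ml and 8.4 to 11.1 at 100 ng/ml, and Upk3b and Lrrn4 fell at both lower doses. The 6 pericyte and smooth muscle markers summed to 698 to 750 CPM untreated, 557 to 688 at 10 ng/ml, 605 to 765 at 30 ng/ml and 632 to 858 at 100 ng/ml. Of these 6, Rgs5, Cspg4 and Des rose and Myh11 and Cnn1 fell at both lower doses. The part of these shifts in the results below was not tested. In such bulk libraries, fewer cells of a type and less RNA per cell cannot be told apart.

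All 36 genes matched 1 annotated gene each in GENCODE on the mm10 build, and they lie on 16 chromosomes. Of these, 35 passed the filter on low counts and were tested among 17360 genes. The exception was Psmb11, the thymus-specific beta subunit, which had 5 counts in 1 library at 10 ng/ml and 0 in each of the others. Psma8, the testis-specific alpha subunit, was tested but barely counted, with 0 and 11 counts in untreated libraries, 9 and 12 at 10 ng/ml, 7 and 5 at 30 ng/ml and 3 and 15 at 100 ng/ml. Both tissue-restricted genes thus had at most 15 counts in any library. The remaining 34 genes averaged between 35.0 and 323 CPM over the 8 libraries. For 9 genes an exon overlaps an exon of another gene, and reads there could have been assigned to either gene, since neither the counting program nor its strand setting is given in the sources used here. These are Psma4, Psma5, Psmb5, Psmb7, Psmc3, Psmd1, Psmd3, Psmd9 and Psmd13. The longest overlap is 1849 bases, between Psmd9 and Gm26745.

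Promoter windows from RefSeq, on GRCm38.p6 and covering 250 bases before to 50 after the start, were found for 29 of the 36 genes, and 2 of these, Psma6 and Psmc2, had more than 1 start. The stretches printed here, from 120 bases before to 30 after the start, belong to the genes with the largest called changes in the core (Psma6), lid (Psmd11) and base assembly (Psmd10), and to the catalytic subunits with an antioxidant response element core (Psmb5 and Psmb6). Capitals mark matches, on either strand, to 4 motifs: TGACNNNGC, the antioxidant response element core bound by Nfe2l1 and Nfe2l2 with small Maf proteins; CCAAT, the box bound by NF-Y; GCGCATGCG, the site of nuclear respiratory factor 1; and GGGNNTTTC, a shortened form of the kappa B site.
Psma6, upstream start, chr12:55384102-55384251, plus strand: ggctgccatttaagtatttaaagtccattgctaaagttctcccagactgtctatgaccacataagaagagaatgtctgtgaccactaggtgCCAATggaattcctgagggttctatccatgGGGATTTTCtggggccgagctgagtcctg
Psma6, downstream start, chr12:55398705-55398854, plus strand: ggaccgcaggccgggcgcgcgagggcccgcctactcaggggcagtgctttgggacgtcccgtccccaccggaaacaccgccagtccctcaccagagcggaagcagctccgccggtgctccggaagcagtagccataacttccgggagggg
Psmd10, chrX:140956682-140956831, minus strand: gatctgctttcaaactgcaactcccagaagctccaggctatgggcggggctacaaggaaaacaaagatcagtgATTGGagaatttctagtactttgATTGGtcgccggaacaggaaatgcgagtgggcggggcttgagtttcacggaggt
Psmd11, chr11:80428495-80428644, plus strand: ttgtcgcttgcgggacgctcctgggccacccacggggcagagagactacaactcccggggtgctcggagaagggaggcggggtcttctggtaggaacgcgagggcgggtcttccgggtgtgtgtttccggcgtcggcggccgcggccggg
Psmb5, chr14:54617966-54618115, minus strand: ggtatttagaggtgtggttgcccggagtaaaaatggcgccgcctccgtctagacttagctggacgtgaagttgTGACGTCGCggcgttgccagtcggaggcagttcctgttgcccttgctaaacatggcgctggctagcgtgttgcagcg
Psmb6, chr11:70525237-70525386, plus strand: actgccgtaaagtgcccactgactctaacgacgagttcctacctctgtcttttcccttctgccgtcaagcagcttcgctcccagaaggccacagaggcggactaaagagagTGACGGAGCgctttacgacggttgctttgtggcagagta

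The antioxidant response element core stood in the windows of 5 of 29 subunit genes (17.2%), Psmb5, Psmb6, Psmc6, Psmd9 and Psmd12, beside 14.0% of the 27025 genes in the promoter table. In Psmb5 the match TGACGTCGC begins 47 bases before the start, and in Psmb6 the match TGACGGAGC begins 9 bases before it. The CCAAT box stood in 12 of 29 windows (41.4%), beside 41.1% of all genes, and Psmd10 held it in reverse at 47 and 24 bases before the start. The nuclear respiratory factor 1 site was found in 1 gene of 29, Psma2 (3.45%), beside 1.95% of all genes. The shortened kappa B site was found in 1 gene of 29, Psma6 (3.45%), beside 5.06% of all genes, where GGGATTTTC begins at base 2 of the upstream start. The counts are per gene and do not tell the Psma6 starts apart. The printed Psmd11 stretch and the downstream Psma6 stretch hold none of the 4 motifs.

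Subunit transcripts were more abundant at the lower doses. The 36 genes together took 0.330% and 0.345% of the counts of untreated libraries, 0.431% and 0.414% at 10 ng/ml, 0.413% and 0.408% at 30 ng/ml and 0.336% and 0.354% at 100 ng/ml. All 4 libraries at 10 and 30 ng/ml lay above the other 4 libraries. The 16 core genes took 0.119% and 0.126% untreated, 0.165% and 0.158% at 10 ng/ml, 0.158% and 0.154% at 30 ng/ml and 0.129% and 0.133% at 100 ng/ml. The 20 regulatory genes took 0.211% and 0.219% untreated, 0.266% and 0.256% at 10 ng/ml, 0.256% and 0.254% at 30 ng/ml and 0.207% and 0.221% at 100 ng/ml. Core genes at 100 ng/ml lay slightly above the untreated libraries, whereas regulatory genes at 100 ng/ml overlapped them. These shares are descriptions, and with 2 libraries a group they were given no test of their own.

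**Figure D1:**
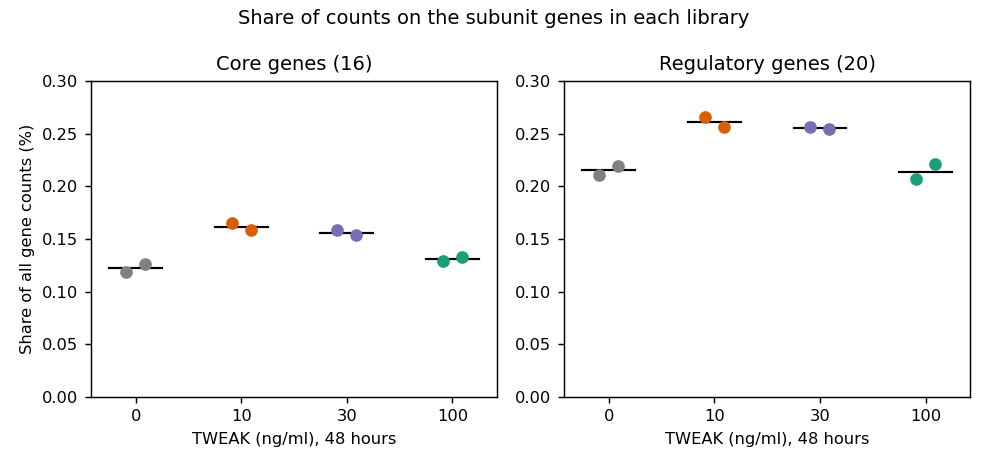
Share of all gene counts (percent) on the 16 core and the 20 regulatory proteasome genes, by TWEAK dose (ng/ml). Each point is 1 library and each line the mean of 2. Core genes took 0.119% to 0.126% in untreated libraries and 0.158% to 0.165% at 10 ng/ml, and the libraries at 100 ng/ml (0.129% and 0.133%) lay near the untreated ones.

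At 10 ng/ml, 19 of the 35 tested genes rose and 0 fell (edgeR quasi-likelihood test, adjusted p under 0.05 over 17360 genes), where 15.0% of all genes rose and 14.2% fell. Among the 7783 genes that averaged at least 20 CPM, the level range of 34 of the subunit genes, 20% rose. Called higher were 12 of 15 tested core genes and 7 of 20 regulatory genes, the latter including the chaperones Psmd5 and Psmd10. The difference between core and regulatory genes was not tested. Among calls that held in every alternative run, Psma5, Psma6 and Psma7 are core genes. Psmd8, Psmd10, Psmd11 and Psmd14 are regulatory by symbol. The median log2 change was 0.32 for the core and 0.18 for the regulatory genes, beside 0.006 for all genes tested. Positive changes were seen in 34 of 35 genes, against 50.4% of all genes. The 35 genes and the core median include Psma8, which had at most 15 counts in any library. In 32 of 35 genes both libraries at 10 ng/ml lay above both untreated libraries, as in 33.1% of all genes. The count of 19 depended on single libraries: leaving out replicate 1 at 10 ng/ml gave 9, and leaving out replicate 1 or 2 of the untreated libraries gave 8 or 10. The 7 calls that held in each of these fits and in each other alternative run were those of Psma5, Psma6, Psma7, Psmd8, Psmd10, Psmd11 and Psmd14.

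At 30 ng/ml, 12 of 35 genes rose and 0 fell, 7 of them core and 5 regulatory, where 12.6% of all genes rose and 10.7% fell. Of the genes averaging at least 20 CPM, 16.8% rose. The median log2 change was 0.25 for the core and 0.17 for the regulatory genes. Both libraries at 30 ng/ml lay above both untreated libraries in 32 of 35 genes, as in 32.4% of all genes. The genes called were Psma1, Psma4, Psma5, Psma6, Psma7, Psmb5, Psmb7, Psmc4, Psmd8, Psmd10, Psmd11 and Psmd14. Without untreated replicate 1 or replicate 1 at 30 ng/ml the count was 6, and without replicate 2 at 30 ng/ml it was 7. The 6 calls that held in each alternative run were those of Psma1, Psma6, Psma7, Psmd10, Psmd11 and Psmd14. The comparisons with 10, 30 and 100 ng/ml share the same untreated libraries.

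At 100 ng/ml, 0 of 35 genes passed the test with edgeR, DESeq2 or limma-voom, and 2 genes, Psmd3 and Psmd11, had an unadjusted edgeR p under 0.05, as did 2017 of the 17360 genes tested. Over all genes 1.12% passed the adjusted threshold in either direction. The median log2 change was 0.091 for the core and -0.039 for the regulatory genes. Both libraries lay above both untreated libraries in 9 genes and below them in 3, where this held for 21.9% and 22.1% of all genes. The libraries at 100 ng/ml differed from each other: of the 34 genes counted in every library, 9 lay above and 15 below both untreated libraries in replicate 1, and 22 above and 3 below in replicate 2.

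**Figure D2:**
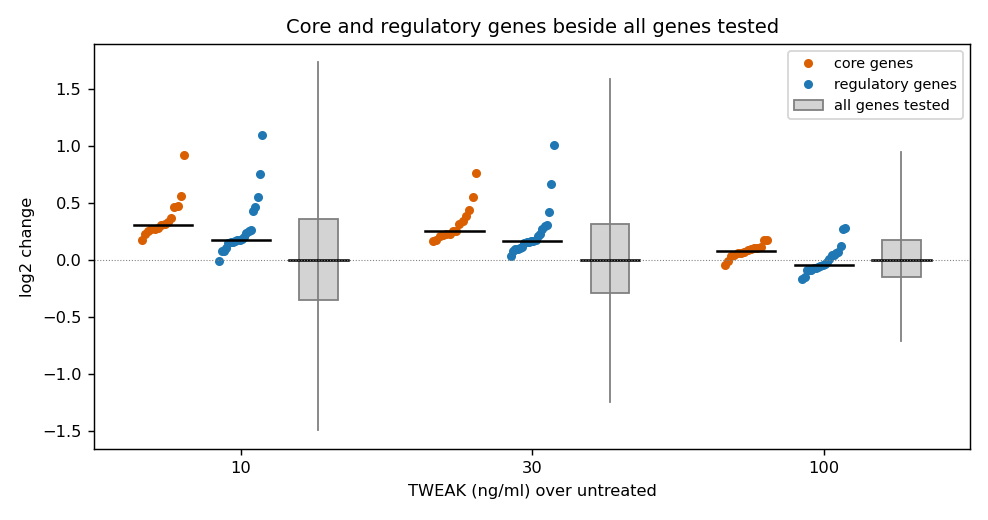
Log2 change over untreated (vertical axis) at 10, 30 and 100 ng/ml TWEAK. Each point is 1 of 14 core or 20 regulatory genes (Psma8 and Psmb11 left out), with a line at the median, and the grey box and whisker give the middle 50% and 90% of all 17360 genes tested. Core and regulatory genes lie mostly above 0 at 10 and 30 ng/ml and around 0 at 100 ng/ml.

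All 7 alpha ring genes rose at 10 ng/ml, by log2 changes of 0.23 to 0.92 with a median of 0.34. Of these 7 calls, only those of Psma5, Psma6 and Psma7 held in every alternative run. The calls of Psma2 and Psma4 were lost with no filter on low counts. Psma2 was also lost with the replicate number as a block, and Psma4 with only the groups compared. The alpha subunits form the outer rings of the core and its gate. Psma6 had 83.8 and 94.0 CPM in untreated libraries, 170 and 166 CPM at 10 ng/ml, 156 and 145 CPM at 30 ng/ml and 92.5 and 98.9 CPM at 100 ng/ml. Its libraries at 10 and 30 ng/ml lay above all others, and those at 100 ng/ml overlapped the untreated ones. The log2 change of Psma6 was 0.92 ± 0.081 (SE, n = 2 libraries each; edgeR adjusted p = 0.000106) at 10 ng/ml and 0.76 ± 0.081 (edgeR adjusted p = 0.000389) at 30 ng/ml. At 10 ng/ml this is a 1.89-fold level, with a 95% interval of 1.66 to 2.15.

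Psma7 had 75.1 and 80.3 CPM untreated, 121 and 109 CPM at 10 ng/ml, 108 and 120 CPM at 30 ng/ml and 84.6 and 91.6 CPM at 100 ng/ml. It rose by 0.56 ± 0.089 at 10 ng/ml (edgeR adjusted p = 0.00233) and by 0.56 ± 0.089 at 30 ng/ml (edgeR adjusted p = 0.00307). Psma1 rose by 0.34 ± 0.066 at 10 ng/ml (edgeR adjusted p = 0.00626), with 97.5 and 97.7 CPM, against 74.5 and 79.8 CPM untreated. Its libraries at 30 ng/ml both had 101 CPM, and those at 100 ng/ml, at 73.9 and 76.0 CPM, overlapped the untreated ones. Psma3, the alpha gene with the largest p at 10 ng/ml, had 114 CPM in both libraries, against 83.8 and 99.7 CPM untreated (log2 change 0.32 ± 0.095, edgeR adjusted p = 0.0393). Psma3 had 112 and 101 CPM at 30 ng/ml and 98.9 and 98.7 CPM at 100 ng/ml. The untreated Psma3 libraries differed by more than those of the other alpha genes described here, and Psma3 did not pass at 30 ng/ml (edgeR adjusted p = 0.146). Its call at 10 ng/ml was lost with no filter on low counts, with the replicate number as a block and with only the groups compared.

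**Figure D3:**
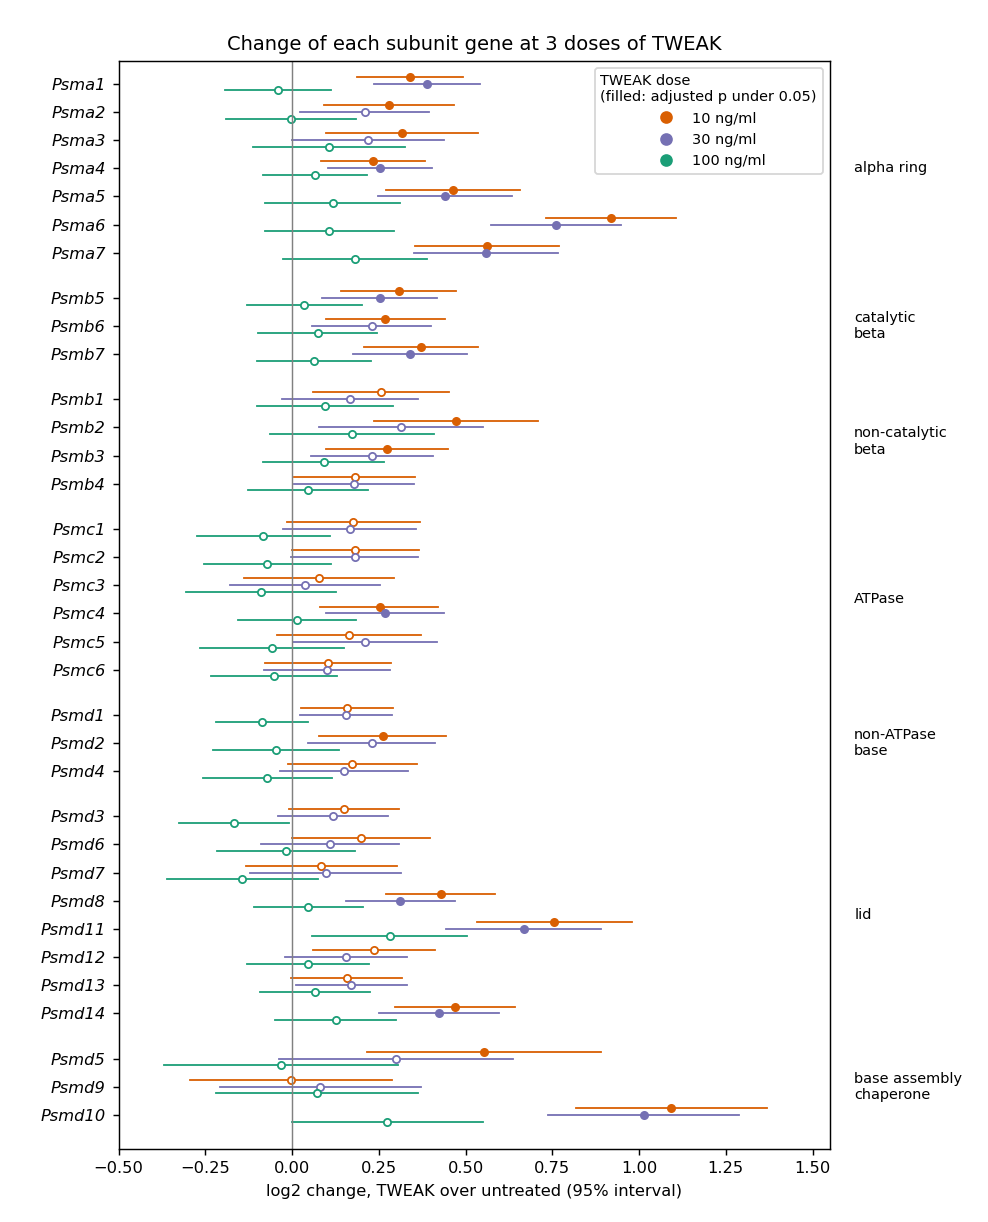
Log2 change over untreated (horizontal axis) of 34 proteasome genes at 10, 30 and 100 ng/ml TWEAK, grouped by role. Points are edgeR estimates, lines their 95% intervals, and filled points have an adjusted p under 0.05. Psmd10, Psma6 and Psmd11 lie farthest to the right at 10 and 30 ng/ml, and no point at 100 ng/ml is filled.

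The 3 constitutive catalytic subunits all rose at 10 ng/ml, with smaller log2 changes than Psma6. Psmb5, which carries the chymotrypsin-like activity, had 81.7 and 76.1 CPM at 10 ng/ml, against 63.3 and 64.2 CPM untreated (log2 change 0.31 ± 0.071, edgeR adjusted p = 0.0141). Psmb6, which carries the caspase-like activity, had 98.5 and 96.6 CPM, against 77.6 and 84.4 CPM (0.27 ± 0.074, edgeR adjusted p = 0.0287). Psmb7, which carries the trypsin-like activity, had 90.1 and 94.4 CPM, against 68.3 and 74.3 CPM (0.37 ± 0.071, edgeR adjusted p = 0.00555). In each of the 3 genes both libraries at 10 ng/ml lay above both untreated libraries. At 30 ng/ml Psmb5 (73.5 and 78.3 CPM, edgeR adjusted p = 0.0387) and Psmb7 (89.8 and 90.8 CPM, edgeR adjusted p = 0.0104) passed the test. The Psmb5 call held in 5 of 17 alternatives and was lost with DESeq2. Psmb6, at 93.4 and 96.4 CPM, did not (log2 change 0.23, edgeR adjusted p = 0.0620). Libraries at 100 ng/ml had 64.3 and 66.3 CPM of Psmb5 (log2 change 0.035), 82.1 and 88.4 CPM of Psmb6 (0.074) and 73.8 and 75.3 CPM of Psmb7 (0.064).

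Of the 4 beta subunits without catalytic activity, Psmb2 and Psmb3 rose at 10 ng/ml, and Psmb1 and Psmb4 did not pass the test. Psmb2 had 95.7 and 79.2 CPM at 10 ng/ml, against 65.0 and 60.9 CPM untreated (log2 change 0.47 ± 0.10, edgeR adjusted p = 0.00997). Psmb3 had 114 and 101 CPM, against 88.5 and 88.7 CPM (0.27 ± 0.075, edgeR adjusted p = 0.0286). Psmb4, with the largest p of the 4, had 153 and 141 CPM, against 129 and 130 CPM (0.18 ± 0.075, edgeR adjusted p = 0.113). None of the 4 passed at 30 ng/ml, where their log2 changes ran from 0.17 to 0.32. At 30 ng/ml Psmb2 had 81.6 and 75 CPM, Psmb3 103 and 105 CPM and Psmb4 147 CPM in both libraries. At 100 ng/ml Psmb2 had 72.8 and 69.2 CPM, Psmb3 94.7 and 94.1 CPM and Psmb4 128 and 140 CPM.

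The inducible catalytic subunits, which replace Psmb5, Psmb6 and Psmb7 in the immunoproteasome, rose at both lower doses, with larger log2 changes than their constitutive counterparts. Psmb8 had 25.8 and 21.2 CPM at 10 ng/ml, against 12.5 and 12.7 CPM untreated (log2 change 0.90 ± 0.19, edgeR adjusted p = 0.00835). Psmb9 had 5.42 and 3.98 CPM, against 2.14 and 1.81 CPM (1.25 ± 0.28, edgeR adjusted p = 0.0118). Psmb10 had 56.8 and 43.3 CPM, against 25.1 and 21.1 CPM (1.12 ± 0.16, edgeR adjusted p = 0.00116). In all 3 genes the libraries at 10 ng/ml lay above the untreated ones. All 3 also rose at 30 ng/ml, Psmb8 with 28.1 and 24.5 CPM (log2 change 1.06), Psmb9 with 5.48 and 3.45 CPM (1.18) and Psmb10 with 54.4 and 47.5 CPM (1.14). None passed the edgeR test at 100 ng/ml, where Psmb8 had 11.8 and 17.1 CPM (adjusted p = 0.761), Psmb9 2.84 and 3.03 CPM (0.494) and Psmb10 22.7 and 25.4 CPM (0.940). Exons of Psmb8 overlap those of Gm20496 by 498 bases, and exons of Psmb9 overlap those of Tap1 by 212 bases.

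Within each library, the counts of each inducible gene were set against those of its constitutive counterpart. Psmb8 counts were 19.7% and 19.8% of Psmb5 counts in untreated libraries, 31.6% and 27.8% at 10 ng/ml, 38.2% and 31.3% at 30 ng/ml and 18.3% and 25.8% at 100 ng/ml. Psmb9 counts were 2.76% and 2.14% of Psmb6 counts untreated, 5.50% and 4.12% at 10 ng/ml, 5.87% and 3.58% at 30 ng/ml and 3.46% and 3.42% at 100 ng/ml. Psmb10 counts were 36.7% and 28.3% of Psmb7 counts untreated, 63.0% and 45.9% at 10 ng/ml, 60.6% and 52.3% at 30 ng/ml and 30.7% and 33.7% at 100 ng/ml. In all 3 pairs the libraries at 10 and 30 ng/ml lay above the untreated libraries. At 100 ng/ml the Psmb9 ratio lay above both untreated values, and the other two overlapped them. Counts are not corrected for gene length, so a ratio of 2 genes is read only across libraries. The difference in change between the genes of a pair was not tested.

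**Figure D4:**
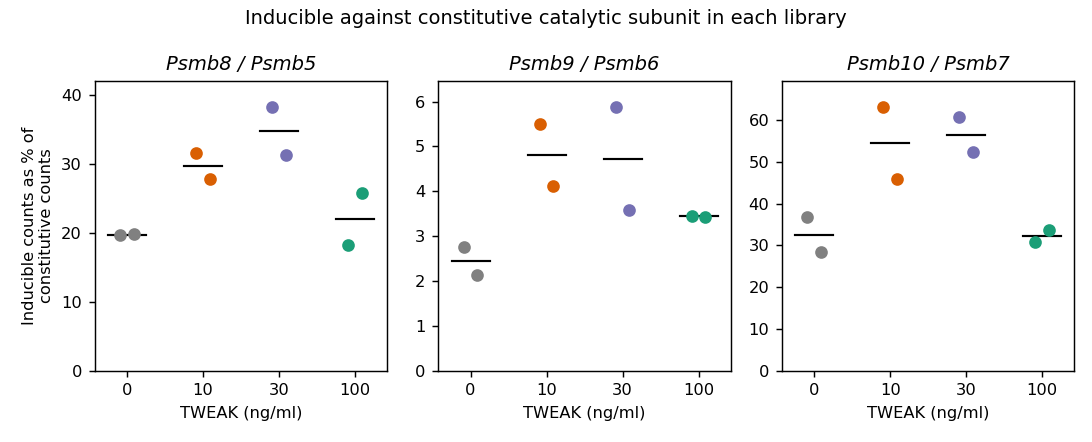
Counts of the inducible subunit as a percentage of the counts of its constitutive counterpart (vertical axis), by TWEAK dose (ng/ml), for Psmb8 and Psmb5, Psmb9 and Psmb6, and Psmb10 and Psmb7. Each point is 1 library and each line the mean of 2. For Psmb10 and Psmb7 the libraries at 10 ng/ml (63.0% and 45.9%) lie above the untreated ones (36.7% and 28.3%).

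The ATPases, which form the unfolding ring of the base, had 1 gene of 6 that rose at 10 ng/ml, where 15.0% of all genes rose, and a median log2 change of 0.17. Psmc4 had 126 and 118 CPM at 10 ng/ml, against 99.2 and 106 CPM untreated (log2 change 0.25 ± 0.074, edgeR adjusted p = 0.0357). It was also called at 30 ng/ml, with 122 and 125 CPM (0.27 ± 0.074, edgeR adjusted p = 0.0338). Both Psmc4 calls were lost with no filter on low counts and with the replicate number as a block. Psmc2 had 140 and 132 CPM at 10 ng/ml, against 118 and 123 CPM (0.18 ± 0.079, edgeR adjusted p = 0.126). Psmc3 had 154 and 132 CPM, against 136 and 135 CPM, with overlapping libraries (0.078 ± 0.093, edgeR adjusted p = 0.586). At 100 ng/ml 5 of the 6 ATPases had negative log2 changes, down to -0.089 in Psmc3, and all 6 overlapped the untreated libraries. Psmc2 had 142 and 130 CPM at 30 ng/ml and 109 and 120 CPM at 100 ng/ml. Psmc3 had 139 CPM in both libraries at 30 ng/ml and 119 and 136 CPM at 100 ng/ml. Psmc4 had 99.6 and 107 CPM at 100 ng/ml.

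Of the 3 non-ATPase subunits of the base, Psmd2 rose at 10 ng/ml. The Psmd2 call was lost with no filter on low counts, with the replicate number as a block and with only the groups compared. Psmd2 and Psmd1 are the large scaffold subunits that dock ubiquitin-binding proteins. Psmd2 had 379 and 334 CPM at 10 ng/ml, against 286 and 310 CPM untreated (log2 change 0.26 ± 0.079, edgeR adjusted p = 0.0402). Psmd1 had 208 and 204 CPM, against 184 and 185 CPM, with both libraries higher but no call (0.16 ± 0.057, edgeR adjusted p = 0.0765). Psmd4, a ubiquitin receptor, had 112 and 104 CPM, against 99.4 and 92.4 CPM (0.17 ± 0.080, edgeR adjusted p = 0.148). None of the 3 passed at 30 ng/ml, where Psmd2 had 351 and 347 CPM, Psmd1 209 and 202 CPM and Psmd4 107 and 105 CPM. At 100 ng/ml Psmd2 had 278 and 298 CPM, Psmd1 171 and 176 CPM and Psmd4 86.8 and 95.7 CPM. The Psmd1 libraries at 100 ng/ml lay below the untreated ones, without passing the test.

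In all 8 lid genes both libraries at 10 ng/ml, and both at 30 ng/ml, lay above both untreated libraries, as in 33.1% and 32.4% of all genes. Fewer passed the test, and differences between lid genes were not tested. Psmd8, Psmd11 and Psmd14 rose at both 10 and 30 ng/ml, and the other 5 lid genes passed at neither dose. Psmd11, which helps clamp the lid to the core and base, had 79.5 and 72.4 CPM untreated, 135 and 121 CPM at 10 ng/ml, 115 and 126 CPM at 30 ng/ml and 86.8 and 97.6 CPM at 100 ng/ml. Its libraries lay above both untreated libraries at every dose. The log2 change was 0.76 ± 0.096 at 10 ng/ml (edgeR adjusted p = 0.000754), 0.67 ± 0.096 at 30 ng/ml (edgeR adjusted p = 0.00184) and 0.28 ± 0.096 at 100 ng/ml (edgeR adjusted p = 0.292). Psmd14, the deubiquitinase of the lid, had 83.9 and 90.7 CPM at 10 ng/ml, against 61.3 and 64.8 CPM untreated (0.47 ± 0.075, edgeR adjusted p = 0.00232). Psmd8 had 171 and 163 CPM, against 121 and 127 CPM (0.43 ± 0.068, edgeR adjusted p = 0.00228). Psmd7, which pairs with Psmd14 in the lid, had 134 and 145 CPM, against 130 and 133 CPM (0.084 ± 0.094, edgeR adjusted p = 0.558). The libraries of Psmd7 at 10 ng/ml lay above the untreated ones without passing the test. At 30 ng/ml Psmd14 had 82.8 and 86.3 CPM, Psmd8 153 and 155 CPM and Psmd7 144 and 137 CPM. At 100 ng/ml Psmd14 had 66.7 and 70.8 CPM, Psmd8 123 and 133 CPM and Psmd7 108 and 129 CPM. Psmd3, another lid subunit, had 129 and 120 CPM untreated, 136 and 141 CPM at 10 ng/ml, 132 and 138 CPM at 30 ng/ml and 112 and 110 CPM at 100 ng/ml. Its libraries at 100 ng/ml lay below all others.

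The base assembly chaperones, which help build the ATPase ring and leave before the proteasome is complete, differed widely. Psmd10, known as gankyrin, had 22.5 and 27.6 CPM untreated, 57.3 and 49.5 CPM at 10 ng/ml, 51.8 and 49.2 CPM at 30 ng/ml and 29.8 and 30.7 CPM at 100 ng/ml. It rose 2.13-fold at 10 ng/ml (95% interval 1.76 to 2.58, log2 change 1.09 ± 0.12, edgeR adjusted p = 0.00033) and by 1.01 ± 0.12 at 30 ng/ml (edgeR adjusted p = 0.00065). Both libraries at 100 ng/ml lay above both untreated libraries without passing the test (0.27 ± 0.12, edgeR adjusted p = 0.433). Psmd5 had 92.5 and 85.0 CPM at 10 ng/ml, against 60.7 and 60.3 CPM (0.55 ± 0.15, edgeR adjusted p = 0.0240), and at 30 ng/ml its libraries stood apart at 84.0 and 65.0 CPM (edgeR adjusted p = 0.191). Its libraries at 100 ng/ml, at 52.2 and 66.2 CPM, lay on either side of the untreated ones. Psmd9 had 35.9 and 32.2 CPM at 10 ng/ml, against 34.2 and 34.0 CPM (-0.003 ± 0.13, edgeR adjusted p = 0.99), with 32.6 and 39.6 CPM at 30 ng/ml and 32.9 and 38.8 CPM at 100 ng/ml. The 95% interval of the Psmd9 change ran from -0.29 to 0.29, which lies below the Psmd10 interval of 0.82 to 1.37.

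**Figure D5:**
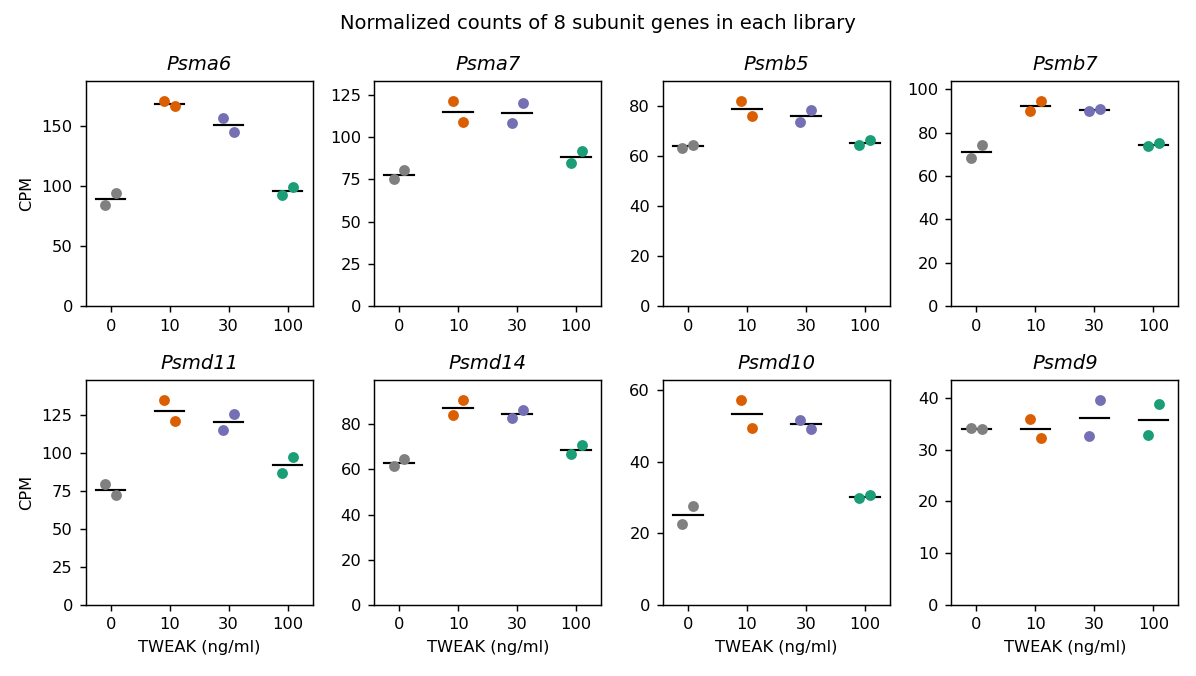
Normalized counts (CPM, vertical axes from 0) of 8 proteasome genes by TWEAK dose (ng/ml). Each point is 1 library and each line the mean of 2. Psma6 and Psmd10 at 10 ng/ml (170 and 166 CPM, and 57.3 and 49.5 CPM) stand well above the untreated libraries, while Psmd9 overlaps at every dose.

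Between doses, 30 ng/ml did not separate from 10 ng/ml. With edgeR, 0 of 35 subunit genes and 0% of all genes passed, DESeq2 and limma-voom also called 0 of the 35, and 0 subunit genes, against 1208 of all genes, had an unadjusted edgeR p under 0.05. The largest change at 10 ng/ml of the 3 doses was seen in 28 genes and at 30 ng/ml in 7, so that 10 ng/ml gave the highest mean in most genes without a tested difference from 30 ng/ml.

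Some of the subunit genes were lower at 100 ng/ml than at the lower doses. Against 10 ng/ml, 15 of 35 genes passed the test as lower and 0 as higher, 7 core and 8 regulatory, where 11.2% of all genes were lower and 10.7% higher. Of the genes averaging at least 20 CPM, 16.2% were lower. Both libraries at 100 ng/ml lay below both at 10 ng/ml in 32 of 35 genes, as in 30.8% of all genes, and the median log2 change was -0.245. Psma6 had 92.5 and 98.9 CPM at 100 ng/ml, against 170 and 166 CPM at 10 ng/ml (log2 change -0.81 ± 0.081, edgeR adjusted p = 0.000344). Psmd10 had 29.8 and 30.7 CPM, against 57.3 and 49.5 CPM (-0.82 ± 0.12, edgeR adjusted p = 0.0021). Psma1 (-0.38 ± 0.066, edgeR adjusted p = 0.00506) and Psmd8 (-0.38 ± 0.068, edgeR adjusted p = 0.00566) followed, with Psmd11 (-0.48 ± 0.096, edgeR adjusted p = 0.0104) and Psmd3 (-0.32 ± 0.069, edgeR adjusted p = 0.0139). The count of 15 was 6 without replicate 1 and 8 without replicate 2 at 10 ng/ml, and 5 without replicate 1 at 100 ng/ml. The calls of Psma1, Psma6, Psmd8 and Psmd10 held in each of the alternatives run.

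Against 30 ng/ml, 11 of 35 genes passed as lower at 100 ng/ml and 0 as higher, 5 core and 6 regulatory, where 8.04% of all genes were lower and 7.15% higher. Both libraries at 100 ng/ml lay below both at 30 ng/ml in 31 of 35 genes, as in 29.5% of all genes. Psma6 (-0.65 ± 0.081, edgeR adjusted p = 0.00153), Psma1 (-0.43 ± 0.066, edgeR adjusted p = 0.00413) and Psmd10 (-0.74 ± 0.12, edgeR adjusted p = 0.00505) had the smallest p-values. Psma1 had 73.9 and 76.0 CPM at 100 ng/ml, against 101 CPM in both libraries at 30 ng/ml. Psma7 (-0.38), Psmd1 (-0.24) and Psmd3 (-0.29) were next, with edgeR adjusted p-values of 0.0268, 0.0261 and 0.0282. Psmd1 had 171 and 176 CPM at 100 ng/ml, against 209 and 202 CPM at 30 ng/ml. The count of 11 was 6 without either untreated library, 3 and 4 without replicates 1 and 2 at 30 ng/ml, and 3 and 5 without replicates 1 and 2 at 100 ng/ml.

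Levels of different subunits were set beside each other per kilobase of merged exon, as a description. In untreated libraries the median was 39.0 CPM per kilobase over 14 core genes and 29.4 over 20 regulatory genes. The 14 leave out the tissue-restricted Psma8 and Psmb11, while the 20 keep the 3 base assembly chaperones. The medians of core and regulatory genes are thus not over like sets. Psmc1 stood highest, at 75.6 CPM per kilobase, followed by Psmd2 at 73.7, Psmc5 at 72.2, Psma6 at 72.0 and Psmb5 at 70.9. The chaperones were among the lowest, with Psmd10 at 17.0, Psmd5 at 8.37 and Psmd9 at 4.70 CPM per kilobase. The lid gene Psmd11, at 11.9 CPM per kilobase, lay below Psmd10. With the length of the longest principal transcript, available for 33 of the 36 genes, the medians were 74.2 for the core and 58.7 for 17 regulatory genes, and Psmb3 stood highest at 116 CPM per kilobase. The order among the abundant subunits thus changed with the length used, while Psmd9 and Psmd5 had the lowest levels with both, the tissue-restricted genes aside. Psmd10 was not among the 33 genes with a principal transcript length.

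Genes that build, regulate or feed the proteasome were read from lists of known function. Of 5 measured core assembly chaperones, 3 rose at 10 ng/ml. Pomp, which guides beta ring maturation, had 82.7 and 87.6 CPM, against 53.3 and 58.0 CPM untreated (log2 change 0.61 ± 0.079, edgeR adjusted p = 0.000795). Psmg3 (0.78 ± 0.13, edgeR adjusted p = 0.00309) and its partner Psmg4 (0.71 ± 0.16, edgeR adjusted p = 0.0113), which help form the alpha ring, also rose, and Psmg1 and Psmg2 did not pass. Of 5 activators and inhibitors that bind the core ends, 2 rose at 10 ng/ml. They were Psme2 (0.68 ± 0.092, edgeR adjusted p = 0.00101), part of the interferon-inducible activator, and Psme3 (0.46 ± 0.073, edgeR adjusted p = 0.00231), the nuclear activator. At 30 ng/ml 3 of the 5 core assembly chaperones and 3 of the 5 activators and inhibitors rose.

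Of 10 regulators of proteasome gene transcription, 3 rose and 1 fell at 10 ng/ml. Nfe2l1, the factor that raises subunit transcription when proteasome capacity is short, had 106 and 135 CPM untreated, 237 and 244 CPM at 10 ng/ml, 220 and 222 CPM at 30 ng/ml and 112 and 141 CPM at 100 ng/ml. Its libraries at 100 ng/ml overlapped the untreated ones, and its log2 change at 10 ng/ml was 0.997 ± 0.14 (edgeR adjusted p = 0.00104). Bach1, a repressor at antioxidant response elements, rose (0.77 ± 0.10, edgeR adjusted p = 0.000875), and so did the small Maf gene Mafg (0.27 ± 0.071, edgeR adjusted p = 0.0248). The small Maf gene Mafk fell to 46.5 and 40.2 CPM at 10 ng/ml, against 69.4 and 67.0 CPM untreated (-0.65 ± 0.088, edgeR adjusted p = 0.000998). At 30 ng/ml 4 of the 10 rose, with Nfe2l2 added, and Mafk fell.

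Of 9 listed genes whose proteins associate with the proteasome, among them ubiquitin receptors and deubiquitinases, 2 rose at 10 ng/ml and 0 at 30 ng/ml. They were the deubiquitinase Usp14 (0.26 ± 0.070, edgeR adjusted p = 0.0265) and Zfand5, a ubiquitin-binding zinc finger protein (1.12 ± 0.24, edgeR adjusted p = 0.00960). Uba1, the main ubiquitin-activating enzyme, rose at both doses (0.30 ± 0.063 at 10 ng/ml, edgeR adjusted p = 0.00949). Of 11 segregase and shuttle genes, which extract and deliver ubiquitinated proteins, 7 rose and 1 fell at 10 ng/ml, and 5 rose and 1 fell at 30 ng/ml. At 10 ng/ml the shuttle Ubqln2 (0.62 ± 0.083, edgeR adjusted p = 0.00102), the Vcp cofactor Nploc4 (0.38 ± 0.074, edgeR adjusted p = 0.00592) and Vcp itself (0.24 ± 0.051, edgeR adjusted p = 0.00989) rose. Faf1, another Vcp cofactor, fell (-0.42 ± 0.089, edgeR adjusted p = 0.00928). No gene (0) passed the edgeR test of 100 ng/ml against untreated in any of these lists or among the inducible subunits. The lists were chosen with earlier results of these data known, so their counts are descriptions beside the 15.0% of all genes that rose at 10 ng/ml.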

How the data were processed

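RNA sequencing covered 8 libraries, grouped by treatment from the sample titles. The authors deposited 1 table of raw, unnormalized counts per gene. The mm10 build, STAR and StringTie are named, without versions or roles, in the submitters' processing notes; the sources used here give neither the counting program nor its annotation or strand setting. Rows without a gene symbol (3225 rows, 0.168% to 0.178% of a library's counts) were left out, and a further 160 rows shared a symbol with another row, none of them a subunit gene.

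The deposited counts were analysed in R 4.3.3 with edgeR 4.0.16: filterByExpr, TMM scaling, and the quasi-likelihood test over all 4 groups (4 residual degrees of freedom), with Benjamini-Hochberg adjustment over 17360 genes in each of 6 comparisons and a threshold of 0.05. CPM are counts per 1000000 of the TMM-scaled library total. Fold changes are fitted log2 changes with standard errors and 95% intervals. The standard errors and intervals were derived from the quasi-likelihood F statistic. Its spread is estimated over all 8 libraries and moderated over genes, so it is not that of the compared libraries alone. Over all genes together, the spread between the 2 libraries of a group exceeded counting error, which need not hold for each gene. In genes with few counts, counting error also limits the precision. Examples are Psma8 and Psmb11, with at most 15 counts in any library, and Psmb9, with 107 and 90 counts in untreated libraries.

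Replicates were compared by chi-square over genes, which gave 22.7 to 27.6 per degree of freedom in the 4 groups, so that no pair was the same library deposited again. Same-numbered libraries did not deviate together (correlations from -0.046 to 0.028), so the numbers were not used as pairs. Alternatives were DESeq2 1.42.0, limma-voom (limma 3.58.1), other scalings and filters, a replicate block, fits of only the groups compared, and each library left out. Leaving out both libraries labelled 100 ng/ml, and the principal transcript length, were chosen after seeing the data. Exons and lengths are from GENCODE M21 and promoters from RefSeq.

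The subunit genes and the lists were chosen with earlier results of these data known. Values in every library are given for the catalytic subunits and their inducible counterparts, for the chaperones and tissue-restricted subunits, in each role for the 2 genes with the smallest p and the 1 with the largest at 10 ng/ml, and for up to 6 genes called between doses. From each list up to 4 called genes with the smallest p at 10 ng/ml are named. Paaf1, of the assembly list, was not used here. A result of 1 listed gene is not reported here.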

Additional observations from a re-analysis of the deposited data

How the results depend on the processing

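With 2 libraries a group, single libraries moved the counts of subunit genes called. Leaving out each library in turn gave 8 to 19 genes higher at 10 ng/ml, 6 to 14 at 30 ng/ml and 0 at 100 ng/ml against untreated, 0 between 30 and 10 ng/ml, 5 to 15 lower at 100 than at 10 ng/ml, and 3 to 10 lower at 100 than at 30 ng/ml. Where this left 1 library in a group, it was assumed to vary like the other groups. With no filter on low counts, 12 genes were higher at 10 ng/ml and 6 lower at 100 than at 30 ng/ml, and a fit of only the groups compared gave 5 for the last. The cause was not tested. No called gene changed direction in any of the 17 alternatives run. Without both libraries labelled 100 ng/ml, 20 genes were higher at 10 ng/ml and 11 at 30 ng/ml. With the principal transcript length, the median level in untreated libraries was 74.2 CPM per kilobase for 14 core and 58.7 for 17 regulatory genes. With merged exons it was 39.0 for 14 core and 29.4 for 20 regulatory genes. The principal transcript is never longer than the merged exons, so no gene has a lower level with it. The 2 regulatory medians are also not over the same genes.

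With the replicate number as a block, 15 genes were higher at 10 ng/ml, 11 at 30 ng/ml and 0 at 100 ng/ml. In that fit 15 were lower at 100 than at 10 ng/ml and 7 lower at 100 than at 30 ng/ml. These were not all the same genes as without the block. Of the 15 first called lower at 100 than at 10 ng/ml, 13 were kept, without Psma2 and Psmb5. Of the 12 first called at 30 ng/ml, 10 were kept. The labels give the numbers no meaning beyond a name. The other scalings moved the median change of all genes by less than 0.1 on the log2 scale. With library totals in place of TMM, that median was 0.035 at 10 ng/ml and 0.036 at 30 ng/ml against untreated. In that scaling 22 subunit genes were higher at 10 ng/ml and 17 at 30 ng/ml, beside 2827 and 2347 of all genes. There, 19 were lower at 100 than at 10 ng/ml, beside 2020 of all genes.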

Other observations

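Rows named as copies of proteasome genes took few counts. Psmb7-ps2 had 7 and 11 counts in untreated libraries, 0 and 3 at 10 ng/ml, 1 and 2 at 30 ng/ml and 2 and 8 at 100 ng/ml. Psmb5-ps, Psmb6-ps and Psmb6-ps2 had 0 counts in every library. Psme2b, a copy of the activator gene Psme2, had more, with 271 and 332 counts in untreated libraries, 376 and 440 at 10 ng/ml, 500 and 391 at 30 ng/ml and 262 and 253 at 100 ng/ml. Whether reads were split between Psme2 and Psme2b was not tested.

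Nfkbia, an NF-kappa B target that encodes its inhibitor, lies 70956 bases from Psma6 on chromosome 12, on the other strand. Nfkbia, named here after its values were seen, had 29.0 and 30.9 CPM untreated, 196 and 198 CPM at 10 ng/ml, 173 and 140 CPM at 30 ng/ml and 40.6 and 48.4 CPM at 100 ng/ml. Whether the closeness of the genes bears on Psma6 was not tested.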
